A study of Mus musculus with 17 samples.

Results

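The transcripts of 10 transcription factors of the cardiac lineage were followed in isolated mouse ventricular cardiomyocytes during a block of transcription. They were taken by name: the GATA factors Gata4 and Gata6, the MEF2 factors Mef2a, Mef2c and Mef2d, the homeodomain factors Nkx2-5 and Prox1, the T-box factors Tbx5 and Tbx20, and the basic helix-loop-helix factor Hand2. All 10 were found among the 55487 genes of the count table, and all 10 were among the 13230 genes with enough counts to be tested. The study compared myocytes of 60-day-old mice labelled as MBNL1 loss-of-function (KO) with those labelled as wild type (WT), and asked which transcripts depend on MBNL1 for their stability. MBNL1 is a muscleblind RNA-binding protein that controls how transcripts are spliced, placed and degraded. The cells of all groups were plated for 3 h and then given actinomycin D, an inhibitor of transcription, at 2 µg/mL. KO cells were harvested at 0, 4 and 8 h (3 libraries each), and WT cells at 0 and 8 h (3 libraries each) and at 4 h (2 libraries), which makes 17 libraries in 6 groups. The labels give no allele, no promoter or Cre driver and no strain, and do not say whether libraries came from separate or pooled animals, so p-values measure the spread between these libraries, which may be technical. No cells were kept for 4 or 8 h without the drug, so time in culture and time under the drug cannot be told apart.

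GATA4, NKX2-5, TBX5, HAND2 and the MEF2 proteins form the regulatory core that sets up the heart in the embryo, bind each other's target promoters and keep the contractile and ion channel genes active in adult myocytes. TBX20 adds repression and activation to the T-box programme, GATA6 overlaps with GATA4, and PROX1, best known for specifying lymphatic endothelium, also acts in cardiomyocytes, where it is needed for ordered sarcomeres. Under a block of transcription the fall of a transcript reports how fast it decays, and transcripts of regulatory proteins are often short-lived.

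Each library held 17059736 to 17971617 gene counts, of which 35.1 to 43.3% came from mitochondrially encoded genes. Levels are given as TMM-scaled CPM, counts relative to the library total multiplied by a TMM scaling factor, which ran from 0.904 to 1.187. Every value is thus relative and not an amount per cell, and any gain or loss is measured against all other transcripts. Where they change a result, values are also given with libraries scaled by their totals alone (library size alone) or by their ribosomal protein gene counts (ribosomal protein scaling). Mbnl1 itself did not show a lower count in KO-labelled cells, at 100 ± 5.36 CPM against 87.5 ± 1.3 CPM in WT at baseline (SD, n = 3 each). On the TMM scale it was higher in KO, with log2 fold changes of 0.19 at 0 h, 0.14 at 4 h and 0.26 at 8 h. The adjusted p in edgeR's quasi-likelihood test was 8.1e-04, 0.033 and 2.1e-05. One count per gene cannot show the loss of part of a gene, so this does not check the label. Esr1, the oestrogen receptor alpha gene, had 36443 to 46057 counts in each KO-labelled library and 0 to 57 in each WT-labelled one. The cardiac myosin gene Myh6, which defines the labelled cell type, was at 14430 to 25520 CPM. The summed level of 10 cardiomyocyte markers was 57343 to 60490 CPM in KO and 43326 to 47301 CPM in WT at baseline. Macrophage, endothelial and fibroblast markers were low and differed between the labels. At baseline 10 macrophage and leukocyte markers summed to 31.9 to 35.9 CPM in KO and 75.4 to 86.9 CPM in WT, with 9 of 10 lower in KO. The sums of 10 endothelial markers were 180 to 209 CPM in KO and 232 to 244 CPM in WT (8 of 10 lower, 1 higher), and those of 10 fibroblast markers 40.3 to 44.5 CPM and 75.0 to 78.5 CPM (8 of 9 tested lower). The 10 pericyte and smooth muscle markers, among them Des, which myocytes also express, summed to 1902 to 2017 CPM in KO and 1813 to 1832 CPM in WT, with 1 higher and 1 lower of 8 tested.

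Per kilobase of exon, Gata4 and Nkx2-5 were the most abundant of the 10 transcripts and Tbx5 and Mef2c the least. In WT at baseline the mean level per length ran from Gata4 at 17.98 CPM per kilobase through Nkx2-5 at 16.4, Mef2d at 15.4, Mef2a at 9.32, Prox1 at 6.03, Hand2 at 5.998, Gata6 at 5.47, Tbx20 at 4.49 and Mef2c at 3.06 to Tbx5 at 2.95 CPM per kilobase (n = 3). The libraries of Prox1 and Hand2 overlapped on this scale, as did those of Mef2c and Tbx5, while all other neighbours in the order did not. In KO at baseline Prox1 lay lower in the order, at 3.53 CPM per kilobase, under Tbx20 at 4.64, and Hand2 lay higher, at 8.82, with libraries that overlapped those of Mef2a at 9.58. By 8 h Nkx2-5 had the highest mean in both genotypes, at 15.6 CPM per kilobase in KO and 16.6 in WT. Gata4 was next, at 13.4 and 14.9, and the libraries of these 2 genes overlapped in WT and not in KO. Those of Gata4 overlapped in both genotypes with those of Mef2d, at 13.3 in KO and 14.8 in WT. The lengths are those of all annotated exons of a gene joined, so a gene with many unused exons has its level understated.

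**Figure D1:**
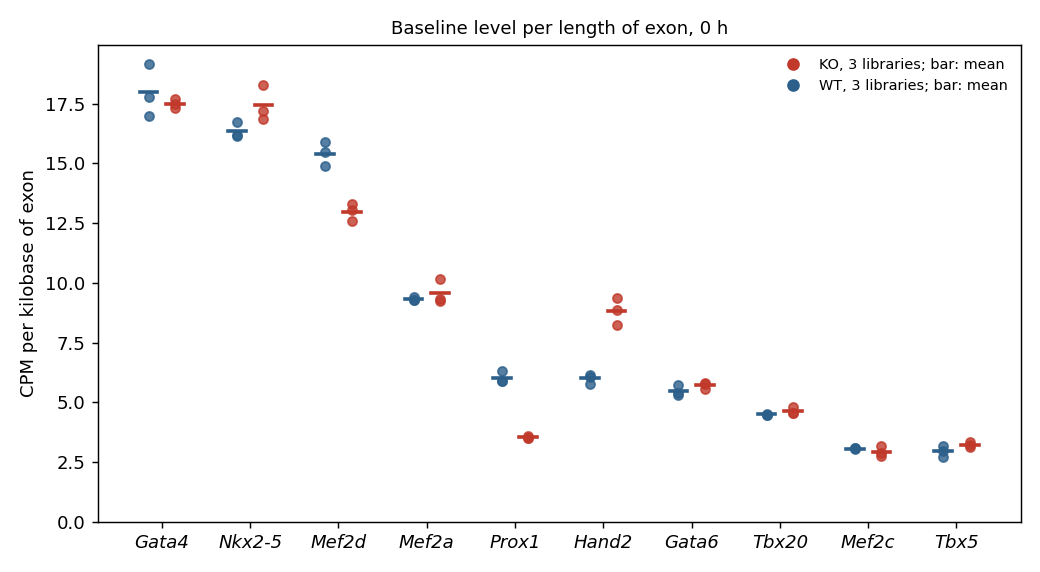
Level of each of the 10 transcripts at 0 h in CPM per kilobase of exon (y axis, linear from 0), with 1 point per library and a bar at the mean of the 3 libraries, WT in blue and KO in red. The genes are ordered by the WT mean, from Gata4 at 17.98 to Tbx5 at 2.95; the points of Prox1 lie lower in KO and those of Hand2 higher.

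The 3′ UTR, where many stability elements lie, differed widely in length among the 10 genes, from 358 bases in Nkx2-5 to 7314 bases in Tbx20, against a median of 1230 bases over 11993 tested genes with an annotated 3′ UTR. Motifs were searched on the transcript strand only. The AU-rich motif TTATTTAT, which contains ATTTA, was present in Mef2a (2 copies) and in Mef2d, Tbx5, Tbx20 and Hand2 (1 copy each), and in 14.7% of all 11993. Among 3′ UTRs within 20% of the same length, 8.102% held it at the length of Hand2, 15.8% at that of Tbx5, 25.7% at that of Mef2d, 28.5% at that of Mef2a and 46.5% at that of Tbx20. During the block these 5 genes did not share a course. In KO at 4 and 8 h, Tbx5, Tbx20 and Hand2 were called lower, Mef2a was called higher and Mef2d was not called. The windows of 30 bases that hold TTATTTAT are shown for this reason, with the motif in capitals, 5′ to 3′ from the annotated transcript.
Hand2, bases 99 to 128 of the 3′ UTR: gatcatccggtTTATTTATgtgcaatttcc
Tbx5, bases 1278 to 1307: actggtactatTTATTTATaaataggaatt
Tbx20, bases 3694 to 3723: aactacttccaTTATTTATagggcaggaaa
Mef2a, bases 898 to 927: attctgctgaaTTATTTATataagccaaag
Mef2a, bases 2446 to 2475: ccctttcatcaTTATTTATgcatgttcatg
Mef2d, bases 2914 to 2943: tctcttgctcgTTATTTATttgtttggaga
The shorter ATTTA, found in 70.8% of all tested 3′ UTRs, was more frequent per kilobase than in the median tested 3′ UTR (1.33) in 9 of the 10 genes, with 3.88 in Hand2, 3.51 in Mef2a, 3.47 in Gata6, 3.14 in Tbx20 and 3.09 in Prox1, and 0.58 in Mef2d.

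Muscleblind proteins bind tetramers with GC at the centre and a pyrimidine on either side. Those searched were TGCT and its relatives TGCC and CGCT, together with CGCC, overlaps included. The 10 genes held 7.83 (Mef2a) to 16.8 (Nkx2-5) of them per kilobase of 3′ UTR, around the median of 12.6 over all tested 3′ UTRs. Prox1 had 49 in 5185 bases (9.45 per kilobase), Mef2d 52 in 3443 bases (15.1) and Hand2 8 in 773 bases (10.3). The windows of 30 bases with the most tetramers in the 3 genes that differed between the genotypes at baseline, with tetramers in capitals, are these.
Prox1, bases 800 to 829 of the 3′ UTR: CGCTtagcatTGCTgtTGCTgtttaacctt
Mef2d, bases 197 to 226: CGCTttagagagagggaTGCTctTGCCcct
Hand2, bases 142 to 171: TGCCCGCCcccacccacccacctttgagca
They hold 3 tetramers in Prox1 and Mef2d and 2 in Hand2. Of 3′ UTRs within 20% of the same length, 90.2% had a window with at least as many at the length of Prox1, 80.6% at that of Mef2d and 88.3% at that of Hand2. A match describes letters in the annotated transcript and is no measurement of binding.

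Before the block, 3 of the 10 transcripts differed between the genotypes: Prox1 and Mef2d were lower in KO and Hand2 was higher. A difference was called at an adjusted p under 0.05 in edgeR's quasi-likelihood test, adjusted by Benjamini-Hochberg over all tested genes. By this rule 36.7% of the 13230 genes were called in this comparison (18.8% higher and 17.9% lower), so 3 of 10 (1 higher, 2 lower) is no more than the background. The median log2 fold change was 0.04 over the 10 genes and -0.02 over all genes.

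Prox1 (ENSMUSG00000010175, GRCm38 chromosome 1, 190118035 to 190170714, reverse strand) stood at 30.2, 29.2 and 29.5 CPM in the 3 KO libraries and at 49.6, 49.4 and 52.9 CPM in the 3 WT libraries at baseline. Every KO library lay well under every WT library. The KO level was 58.6% of the WT level, with the log2 fold change at -0.77 ± 0.06 (SE, adjusted p = 2.1e-16). Prox1 also marks lymphatic endothelium, whose other markers were scarce: 6 of them summed to 6.78 to 6.92 CPM in KO and 7.80 to 9.02 CPM in WT, with 1 of the 4 tested lower in KO. Lyve1 was at 2.03 to 2.37 CPM in KO and 2.73 to 3.86 CPM in WT, and Flt4 at 2.58 to 3.16 and 2.58 to 3.20 CPM. The part of these cells in the Prox1 difference was not tested. In RNA of many cells, fewer cells of a type and less RNA per cell cannot be told apart. Prox1os, an antisense gene that shares 133 bases with the exons of Prox1, had 8 to 23 counts per library.

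Mef2d (ENSMUSG00000001419, chromosome 3, 88142372 to 88172086, forward strand), a MADS-box factor that carries stress signals to the myocyte genome, was at 79.7, 78.0 and 75.4 CPM in KO and 92.6, 95.1 and 89.1 CPM in WT at baseline. The groups did not overlap. KO was at 84.2% of WT, with the log2 fold change at -0.25 ± 0.05 (SE, adjusted p = 3.5e-05). The other MEF2 genes did not pass the test. Mef2a was at 136, 149 and 137 CPM in KO and 136, 138 and 136 CPM in WT, and Mef2c at 44.9, 49.6 and 43.4 CPM in KO and 47.7, 48.3 and 48.4 CPM in WT. Their 95% intervals of the log2 fold change were -0.05 to 0.13 for Mef2a and -0.19 to 0.06 for Mef2c. MEF2 transcripts are alternatively spliced, and 1 count per gene does not separate their forms.

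Hand2 (ENSMUSG00000038193, chromosome 8, 57320983 to 57324633, forward strand), which is known from the right ventricle and outflow tract of the embryo, was the only one of the 10 called higher in KO. Its level was 19.3, 20.9 and 21.98 CPM in KO and 14.5, 13.6 and 14.3 CPM in WT. KO lay above WT in every library, at 147% of the WT level, with the log2 fold change at 0.56 ± 0.08 (SE, adjusted p = 2.1e-08). Of its exon bases, 461 (19.6%) are shared with the antisense transcript Hand2os1, which was itself higher in KO at baseline, at 44.97 ± 0.70 CPM against 38.1 ± 0.86 CPM (SD, n = 3 each; log2 fold change 0.24 ± 0.06 SE, adjusted p = 8.7e-04, and 0.03 with library size alone and -0.09 when scaled to ribosomal protein counts). Whether counting used strand is not given in the sources used here, so reads in the shared bases cannot be assigned. Fibroblasts also express Hand2, and their markers, given above, were lower in KO. The 6 epicardial and mesothelial markers summed to 2.58 to 3.52 CPM in KO and 1.52 to 2.18 CPM in WT, with 1 of 3 tested higher. The part of either cell type in the Hand2 difference was not tested.

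The other 5 transcripts did not pass the test at baseline. Gata4 (ENSMUSG00000021944, chromosome 14, 63198922 to 63271692) was at 68.2, 67.7 and 69.0 CPM in KO and 69.4, 74.8 and 66.4 CPM in WT. Gata6 (ENSMUSG00000005836, chromosome 18, 11052064 to 11085635) ranged from 36.2 to 37.8 CPM in KO and 34.5 to 37.1 CPM in WT. Nkx2-5 (ENSMUSG00000015579, chromosome 17, 26838664 to 26845009) lay at 29.0 to 31.4 CPM in KO and 27.7 to 28.8 CPM in WT without overlap, at an adjusted p of 0.29. Tbx20 (ENSMUSG00000031965, chromosome 9, 24718138 to 24774303) lay at 54.8 to 57.5 and 53.5 to 54.3 CPM, also without overlap, at an adjusted p of 0.53. Tbx5 (ENSMUSG00000018263, chromosome 5, 119832668 to 119885219) lay at 14.6 to 15.6 and 12.7 to 14.9 CPM. The widest interval of these was that of Tbx5, whose log2 fold change was 0.13 (95% interval -0.05 to 0.31). With library size alone, which moved the median of all genes to -0.22 and the calls to 6.86% higher and 42.1% lower, Gata4 (log2 fold change -0.24, adjusted p = 0.0020), Tbx20 (-0.16, adjusted p = 0.034), Mef2a (-0.17, adjusted p = 0.0078) and Mef2c (-0.27, adjusted p = 6.3e-04) were called lower in KO. Ribosomal protein scaling moved the median to -0.35 and the calls to 3.62% higher and 57.6% lower, and Gata6 (-0.27, adjusted p = 0.0033) and Nkx2-5 (-0.24, adjusted p = 0.012) were called lower as well. The calls and directions of Prox1, Mef2d and Hand2 were the same under both.

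**Figure D2:**
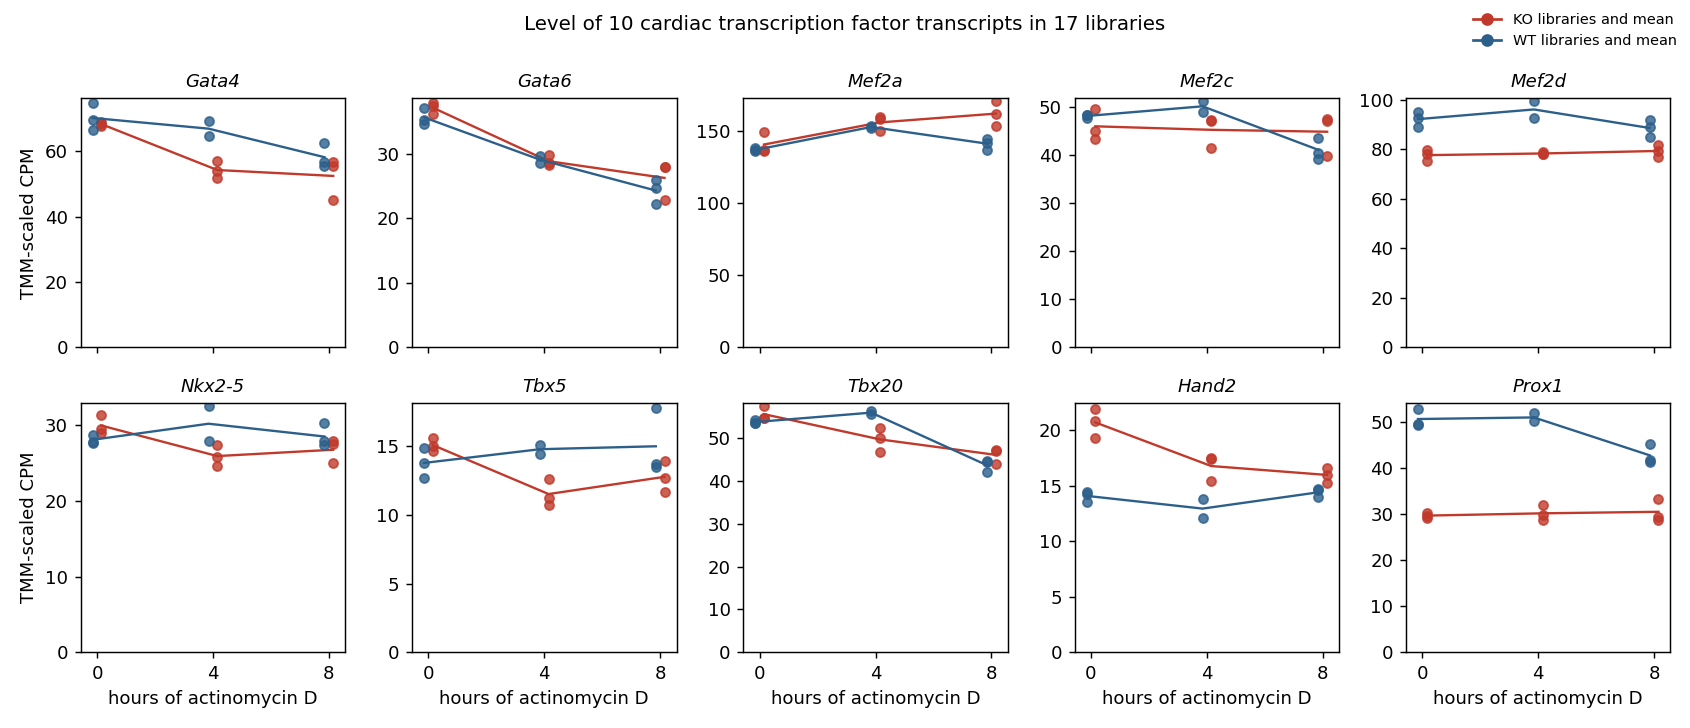
TMM-scaled CPM (y axis, linear from 0, 1 scale per panel) of each of the 10 transcripts against hours of actinomycin D (x axis), with 1 point per library and lines through the group means, KO in red and WT in blue. Prox1 and Mef2d lie lower in KO at all 3 times, Hand2 starts higher in KO and approaches WT by 8 h, and Gata4 and Gata6 fall in both genotypes.

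At 4 h, 7 of the 10 transcripts differed, 6 of them lower in KO and 1 higher, beside 32.0% of all tested genes (17.4% lower and 14.6% higher). The median log2 fold change was -0.20 over the 10 genes and -0.04 over all genes. The differences at baseline held at 4 h: Prox1 was at 28.7, 31.9 and 29.8 CPM in KO and 51.8 and 50.1 CPM in the 2 WT libraries (log2 fold change -0.76 ± 0.07 SE, adjusted p = 3.9e-14). Mef2d was at 78.1, 78.0 and 79.0 CPM against 99.5 and 92.8 CPM (-0.30 ± 0.05 SE, adjusted p = 1.4e-05). Hand2 was at 17.4, 15.4 and 17.5 CPM against 13.8 and 12.1 CPM (0.37 ± 0.09 SE, adjusted p = 0.0010). KO and WT libraries of these 3 genes did not overlap. Ribosomal protein scaling moved the median of all genes at 4 h to -0.40 and the calls to 2.52% higher and 56.3% lower; the value of Hand2 was then 0.01 (adjusted p = 0.92), and Gata6 (-0.37), Mef2a (-0.33) and Mef2c (-0.51) were called lower in KO.

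The other 4 called at 4 h were Gata4, Nkx2-5, Tbx5 and Tbx20, which code for partners at cardiac promoters. Gata4 was at 56.9, 54.1 and 51.8 CPM in KO and 69.2 and 64.7 CPM in WT (log2 fold change -0.30 ± 0.07 SE, adjusted p = 4.0e-04). Tbx5 was at 11.2, 10.7 and 12.6 CPM against 15.1 and 14.5 CPM (-0.36 ± 0.10 SE, adjusted p = 0.0054). Nkx2-5 was at 27.4, 25.9 and 24.6 CPM against 32.6 and 27.9 CPM (-0.22 ± 0.08 SE, adjusted p = 0.021), and its lower WT library lay close to the KO range. Tbx20 was at 52.5, 50.04 and 46.8 CPM against 56.4 and 55.7 CPM (-0.17 ± 0.06 SE, adjusted p = 0.029). All 4 calls needed WT replicate 1 at 4 h. Without it the log2 fold changes were -0.22 for Gata4 (adjusted p = 0.052), -0.30 for Tbx5 (adjusted p = 0.095), -0.08 for Nkx2-5 (adjusted p = 0.64) and -0.13 for Tbx20 (adjusted p = 0.24), with the lone WT library assumed to vary like the other groups. The call of Nkx2-5 was also lost without KO replicate 1 at 0 h, KO replicate 3 at 4 h, or WT replicate 2 or 3 at 0 h (adjusted p from 0.052 to 0.0998), and with DESeq2 (0.13) or no filter on low counts (0.13). DESeq2 did not call Tbx5 (0.057). That of Tbx20 was lost without KO replicate 1 at 0 h, KO replicate 2 or 3 at 4 h, WT replicate 2 or 3 at 0 h, or WT replicate 2 at 4 h (adjusted p from 0.054 to 0.19). It was also lost with DESeq2 (0.13), RLE size factors (0.076), mitochondrial genes left out (0.082), no filter on low counts (0.24) and only the groups compared (0.081).

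At 8 h, 3 of the 10 differed, Prox1 and Mef2d lower in KO and Mef2a higher, beside 27.6% of all genes (13.7% lower and 13.9% higher). Prox1 was at 29.3, 33.3 and 28.8 CPM in KO and 41.8, 41.2 and 45.2 CPM in WT (log2 fold change -0.49 ± 0.06 SE, adjusted p = 5.2e-09). The KO libraries were where they had been at 0 h, and the WT libraries were lower. Mef2a, the most abundant MEF2 transcript by CPM (ENSMUSG00000030557, chromosome 7, 67231163 to 67372858), was at 162, 171 and 154 CPM against 137, 145 and 142 CPM (0.20 ± 0.05 SE, adjusted p = 5.1e-04). That call was lost with library size alone (0.10, adjusted p = 0.18) and when libraries were scaled to ribosomal protein counts (0.14, adjusted p = 0.13). Mef2d was at 81.8, 77.1 and 79.2 CPM against 88.9, 91.9 and 85.1 CPM (-0.16 ± 0.05 SE, adjusted p = 0.011). Its call was lost when either KO replicate 2 (adjusted p = 0.062) or WT replicate 2 (adjusted p = 0.076) of 8 h was left out, with DESeq2 (0.055) and with no filter on low counts (0.083). Hand2, at 16.0, 15.3 and 16.7 CPM in KO and 14.7, 14.6 and 14.0 CPM in WT, was no longer called (0.15, 95% interval -0.02 to 0.31, adjusted p = 0.18), although its groups still did not overlap. Leaving out 1 library added calls at 8 h: Gata4 without KO replicate 1 (adjusted p = 0.043), KO replicate 3 (0.019) or WT replicate 1 (0.045), Tbx5 without KO replicate 3 (0.029), WT replicate 1 (0.022) or WT replicate 3 (0.029), Mef2c without KO replicate 3 (0.023) and Gata6 without KO replicate 2 (0.039), all libraries of 8 h. Gata4 (-0.25) and Tbx5 (-0.33) were also called lower in KO with library size alone, as was Nkx2-5 (-0.19), where 7.17% of all genes were higher and 23.0% lower, and the calls of Gata4 (-0.21) and Tbx5 (-0.29) were gained under ribosomal protein scaling too.

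**Figure D3:**
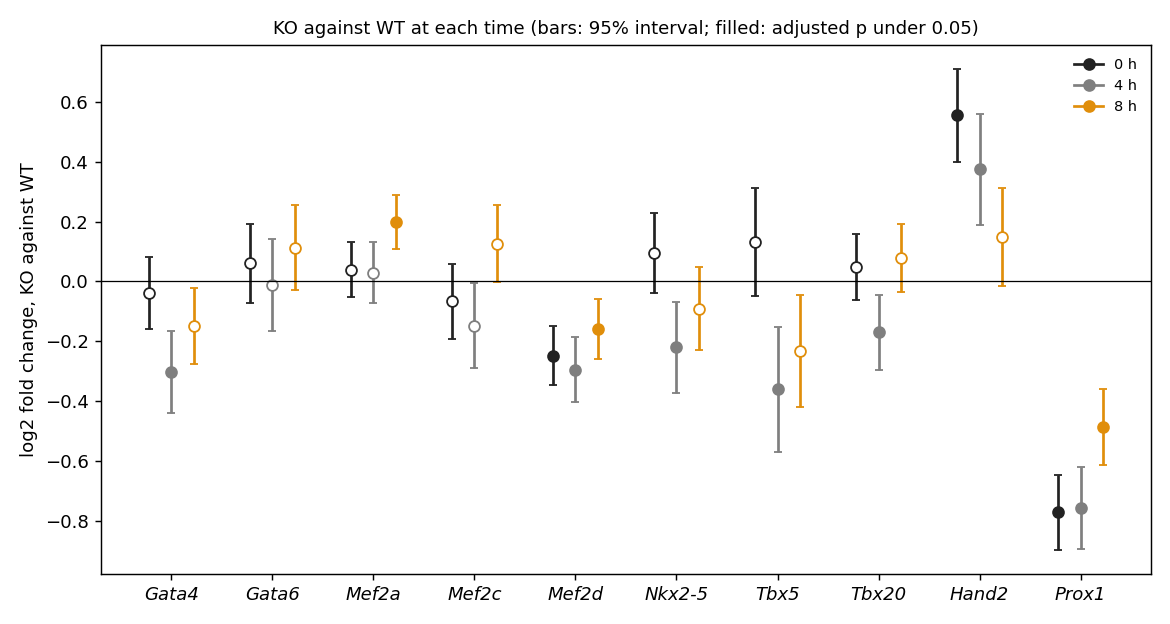
Log2 fold change of KO against WT (y axis) for each of the 10 genes at 0 h (black), 4 h (grey) and 8 h (orange), with 95% intervals and filled points where the adjusted p was under 0.05. Prox1 lies at -0.77, -0.76 and -0.49, Mef2d at -0.25, -0.30 and -0.16, and Hand2 at 0.56, 0.37 and 0.15.

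In WT cells under the block, Gata6 fell from the first time point and 4 more transcripts, Gata4, Mef2c (ENSMUSG00000005583, chromosome 13, 83504034 to 83667080), Tbx20 and Prox1, fell by 8 h. At 4 h, 2 of 10 had changed, Gata6 lower and Mef2a higher, beside 28.5% of all genes (12.6% lower and 15.9% higher; library size alone gave 24.1% and 0.892%, ribosomal proteins 23.0% and 0.333%). At 8 h, 5 of 10 were lower and 0 higher than at 0 h, beside 26.8% of all genes lower and 25.0% higher, 51.9% in all. The median change over the 10 genes at 8 h was -0.14 on the log2 scale, and that over all genes -0.03. With library size alone 8 of 10 were lower, beside 44.6% of all genes lower and 9.64% higher. Under ribosomal protein scaling all 10 were called lower, beside 85.2% of all genes, and 0.378% of genes were higher, with the median over all genes at -0.69.

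Gata6 went from 37.1, 35.2 and 34.5 CPM at 0 h to 28.5 and 29.6 CPM at 4 h and 22.2, 24.7 and 25.9 CPM at 8 h in WT. No library of a later time overlapped with an earlier one. Its level at 8 h was 68.2% of baseline, with the log2 fold change at -0.55 ± 0.07 (SE, adjusted p = 3.7e-10), the lowest of the 10. Tbx20 went from 53.5, 54.3 and 53.7 CPM to 56.4 and 55.7 CPM at 4 h and 42.2, 44.6 and 44.4 CPM at 8 h (-0.30 ± 0.06 SE, adjusted p = 6.8e-06). Its fall lay between 4 and 8 h. Gata4 went from 69.4, 74.8 and 66.4 CPM to 55.4, 62.5 and 56.7 CPM at 8 h (-0.27 ± 0.06 SE, adjusted p = 1.7e-04). Prox1 went from 49.6, 49.4 and 52.9 CPM to 51.8 and 50.1 CPM at 4 h and 41.8, 41.2 and 45.2 CPM at 8 h (-0.24 ± 0.06 SE, adjusted p = 4.9e-04). Mef2c went from 47.7, 48.3 and 48.4 CPM to 39.3, 40.5 and 43.5 CPM at 8 h (-0.23 ± 0.06 SE, adjusted p = 0.0018). These 5 calls at 8 h held without any 1 of the 17 libraries.

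Mef2a in WT was at 136, 138 and 136 CPM at 0 h and 152 and 154 CPM at 4 h (log2 fold change 0.16 ± 0.05 SE, adjusted p = 0.014). With library size alone the value turned to -0.02, and with ribosomal protein scaling to -0.03. The call was lost without KO replicate 1 at 0 h (adjusted p = 0.057), WT replicate 3 at 0 h (0.056), WT replicate 1 at 4 h (0.11) or WT replicate 2 at 4 h (0.20), and with mitochondrial genes left out (0.051), no filter on low counts (0.13) or only the groups compared (0.10). Gata4 and Hand2, not called in WT at 4 h, were called lower there with library size alone (-0.25, adjusted p = 0.012, and -0.30, adjusted p = 0.019) and under ribosomal protein scaling (-0.26, adjusted p = 0.021, and -0.31, adjusted p = 0.025). Mef2d, Nkx2-5, Tbx5 and Hand2 were not called in WT at either time. Their log2 fold changes at 8 h were -0.06, 0.02, 0.12 and 0.03, with 95% intervals of -0.15 to 0.04, -0.11 to 0.16, -0.06 to 0.30 and -0.13 to 0.20.

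From 4 to 8 h in WT, 5 of 10 fell and 0 rose, beside 9.55% of all genes lower and 8.90% higher (18.5% in all); under ribosomal protein scaling all 10 fell, beside 70.6% of all genes lower and 0.280% higher. They were the 5 that were lower at 8 h than at 0 h. Tbx20 fell by 0.36 on the log2 scale (SE 0.06, adjusted p = 1.6e-05), Mef2c by 0.29 (SE 0.07, adjusted p = 0.0021), Gata6 by 0.26 (SE 0.08, adjusted p = 0.013), Prox1 by 0.25 (SE 0.07, adjusted p = 0.0044) and Gata4 by 0.20 (SE 0.07, adjusted p = 0.031). Tbx20 alone kept its call without each library in turn. Without WT replicate 1 at 4 h the calls of Prox1 (adjusted p = 0.11), Gata6 (0.077) and Gata4 (0.39) were lost, and without WT replicate 2 at 4 h those of Mef2c (0.089), Gata6 (0.20) and Gata4 (0.085). Without WT replicate 1 at 8 h Gata6 (0.11) and Gata4 (0.14) were lost, and Gata4 also without WT replicate 3 at 8 h (0.094), KO replicate 1 at 0 h (0.071) or WT replicate 2 or 3 at 0 h (0.058 each). Gata4 was also lost with DESeq2 (0.13), RLE size factors (0.056), mitochondrial genes left out (0.062), no filter on low counts (0.092) and only the groups compared (0.055), and Gata6 with DESeq2 (0.074) and no filter (0.055).

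In KO cells 7 of the 10 had changed at 4 h and the same 7 at 8 h: Gata4, Gata6, Nkx2-5, Tbx5, Tbx20 and Hand2 were lower than at 0 h and Mef2a was higher. Of all genes 24.9% were called at 4 h (13.5% lower and 11.4% higher) and 44.6% at 8 h (23.2% lower and 21.4% higher). The split at 8 h was 30.2% lower and 11.3% higher with library size alone, and ribosomal protein scaling gave 34.9% lower and 0.151% higher at 4 h and 62.1% and 0.212% at 8 h. The median change of the 10 genes was -0.18 at 4 h and -0.20 at 8 h on the log2 scale, and that of all genes -0.0037 and -0.02.

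Gata6 went from 36.2, 37.8 and 37.4 CPM at 0 h to 29.7, 28.2 and 28.6 CPM at 4 h and 28.0, 22.8 and 28.0 CPM at 8 h in KO. At 8 h this was 70.7% of baseline (-0.50 ± 0.07 SE on the log2 scale, adjusted p = 1.1e-08). Gata4 went from 68.2, 67.7 and 69.0 CPM to 56.9, 54.1 and 51.8 CPM at 4 h and 55.4, 45.2 and 56.7 CPM at 8 h (-0.38 ± 0.06 SE, adjusted p = 9.4e-07). For both GATA genes KO replicate 2 at 8 h was the lowest library. Hand2 went from 19.3, 20.9 and 21.98 CPM to 17.4, 15.4 and 17.5 CPM at 4 h and 16.0, 15.3 and 16.7 CPM at 8 h (-0.37 ± 0.08 SE, adjusted p = 6.6e-05). Hand2os1 had a higher TMM-scaled level at 8 h (0.20 ± 0.06 SE, adjusted p = 0.0040), which turned to -0.19 with ribosomal protein scaling. Tbx20 went from 54.8, 57.5 and 54.8 CPM to 52.5, 50.04 and 46.8 CPM and 47.1, 47.3 and 44.1 CPM (-0.27 ± 0.06 SE at 8 h, adjusted p = 5.9e-05). Its call at 4 h (-0.16, adjusted p = 0.026) was lost without KO replicate 2 at 0 h (0.12), KO replicate 2 at 4 h (0.058) or KO replicate 3 at 4 h (0.18), and with DESeq2 (0.083) or no filter on low counts (0.21).

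Within KO, Tbx5 and Nkx2-5 were lower at 4 and 8 h than at 0 h. The call of Tbx5 at 4 h held without any 1 of the 17 libraries, while the other calls depended on single libraries. Tbx5 went from 14.6, 15.1 and 15.6 CPM to 11.2, 10.7 and 12.6 CPM at 4 h (log2 fold change -0.39 ± 0.09 SE, adjusted p = 0.0011) and 12.7, 11.7 and 13.9 CPM at 8 h (-0.24 ± 0.09 SE, adjusted p = 0.031). The call at 8 h was lost without KO replicate 2 (0.061) or 3 (0.094) at 0 h and without KO replicate 1 (0.071) or 2 (0.16) at 8 h, and with DESeq2 (0.19), RLE size factors (0.059) or no filter on low counts (0.15). Nkx2-5 went from 29.0, 29.6 and 31.4 CPM to 27.4, 25.9 and 24.6 CPM at 4 h (-0.21 ± 0.07 SE, adjusted p = 0.019) and 27.5, 25.0 and 27.9 CPM at 8 h (-0.16 ± 0.07 SE, adjusted p = 0.048). The call at 4 h was lost without KO replicate 3 at 0 h (0.10), KO replicate 2 at 4 h (0.054) or KO replicate 3 at 4 h (0.11), and with DESeq2 (0.091) or no filter on low counts (0.11). That at 8 h was lost without KO replicate 2 or 3 at 0 h, KO replicate 2 at 4 h, KO replicate 1 or 2 at 8 h, WT replicate 1 or 2 at 4 h, or WT replicate 3 at 8 h (adjusted p from 0.0503 to 0.23). It was also lost with DESeq2 (0.24), RLE size factors (0.11), mitochondrial genes left out (0.053) and no filter on low counts (0.39).

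Mef2a in KO was at 136, 149 and 137 CPM at 0 h, 158, 160 and 150 CPM at 4 h and 162, 171 and 154 CPM at 8 h (log2 fold change 0.15 ± 0.05 SE at 4 h, adjusted p = 0.011, and 0.20 ± 0.05 SE at 8 h, adjusted p = 1.7e-04). Both calls were lost with library size alone (0.13 and 0.10), and under ribosomal protein scaling the values turned to -0.07 at 4 h and to a called -0.18 at 8 h (adjusted p = 0.017). The 4 h call was lost without KO replicate 1 at 0 h (0.082), KO replicate 3 at 0 h (0.061) or KO replicate 2 at 4 h (0.067). Prox1, Mef2d and Mef2c were not called in KO, with 95% intervals at 8 h of -0.09 to 0.17, -0.07 to 0.13 and -0.16 to 0.09. Under ribosomal protein scaling they too were called lower at 8 h (-0.35, -0.36 and -0.42). From 4 to 8 h in KO, 0 of 10 were called by edgeR, beside 8.60% of all genes (4.78% higher and 3.82% lower; 0.0302% and 16.5% under ribosomal protein scaling, which called 3 of 10); 0 had an unadjusted p under 0.05, and DESeq2 also called 0.

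Markers of macrophages, endothelial cells and fibroblasts fell in the same libraries. In WT the macrophage and leukocyte sum went from 75.4 to 86.9 CPM at 0 h to 15.2 to 17.5 CPM at 8 h. There 10 of 10 markers were lower. In KO it went from 31.9 to 35.9 CPM to 21.1 to 24.8 CPM, with 7 of 10 lower. The KO change minus the WT change at 8 h was called higher for 7 of 10. The endothelial sum went from 232 to 244 CPM at 0 h to 51.7 to 54.5 CPM at 8 h in WT and from 180 to 209 CPM to 52.7 to 56.4 CPM in KO, with 10 of 10 markers lower in both. The fibroblast sum went from 75.0 to 78.5 CPM to 42.1 to 49.1 CPM in WT and from 40.3 to 44.5 CPM to 25.3 to 27.8 CPM in KO, with 9 of 9 tested lower in both. The pericyte and smooth muscle sum was higher at 8 h, at 2245 to 2459 CPM in WT and 2539 to 2556 CPM in KO. Of 8 tested, 3 were higher in both, and 5 were lower in WT and 4 in KO. Des, which myocytes also express, made up most of the sum (mean 1268 of 1822 CPM in WT at 0 h). From 0 to 8 h mean Pdgfrb went from 2.35 to 0.70 CPM in WT and 2.28 to 0.61 CPM in KO. Mean Myh11 went from 7.84 to 6.05 CPM in WT and 7.46 to 3.71 CPM in KO. Mef2c is also an endothelial gene, and Gata4, Gata6, Tbx5, Tbx20 and Hand2 are also found in cardiac fibroblasts. The part of these cells in the falls was not tested.

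**Figure D4:**
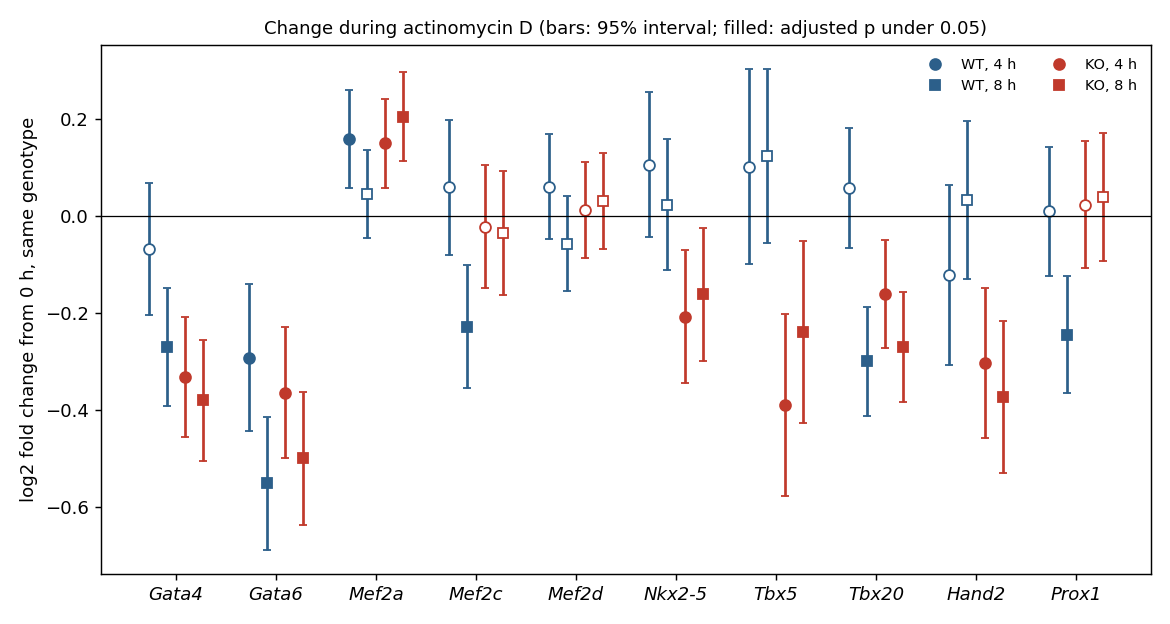
Log2 fold change from 0 h within the same genotype (y axis) for each of the 10 genes at 4 h (circles) and 8 h (squares), WT in blue and KO in red, with 95% intervals and filled symbols where the adjusted p was under 0.05. Gata6 lies lowest at 8 h in both genotypes, at -0.55 and -0.50, while Hand2 lies at 0.03 in WT and -0.37 in KO and Prox1 at -0.24 and 0.04.

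Whether the change during the block differed between the genotypes was tested as an interaction, the KO change minus the WT change. At 8 h, 2 of the 10 passed, Hand2 and Prox1, beside 5.20% of all genes (1.87% higher and 3.33% lower). Hand2 fell in KO and was not called in WT, with an interaction of -0.41 ± 0.11 on the log2 scale (SE, adjusted p = 0.021). Prox1 fell in WT and was not called in KO, with an interaction of 0.28 ± 0.09 (SE, adjusted p = 0.045). In both genes the difference that stood at baseline was smaller at 8 h. The interaction uses the same libraries as the comparisons above, so it is not separate evidence of them. Both calls were near the threshold. For Hand2 it was lost with DESeq2 (-0.41, adjusted p = 0.073), with no filter on low counts (-0.35, adjusted p = 0.10), with library size alone (-0.30, adjusted p = 0.14), when scaled to ribosomal protein counts (-0.13, adjusted p = 0.49), and without KO replicate 3 at 0 h (0.072), KO replicate 2 at 8 h (0.066) or WT replicate 1 at 8 h (0.054). For Prox1 it was lost with DESeq2 (0.28, adjusted p = 0.086) and without KO replicate 1 (0.053), 2 (0.095) or 3 (0.097) at 0 h, KO replicate 3 at 4 h (0.051), KO replicate 1 (0.0503) or 2 (0.21) at 8 h, WT replicate 2 (0.085) or 3 (0.17) at 0 h, or WT replicate 1 (0.10) or 2 (0.0996) at 8 h.

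Tbx5 had an interaction of -0.36 at 8 h (95% interval -0.62 to -0.10, adjusted p = 0.091) and -0.49 at 4 h (-0.77 to -0.22, adjusted p = 0.12). It was called at 8 h when KO replicate 3 at 8 h (adjusted p = 0.048) or WT replicate 2 at 0 h (0.044) was left out. At 4 h, 0 of 10 passed with edgeR, beside 0.348% of all genes; 4 had an unadjusted p under 0.05, and DESeq2 also called 0. The 4 h values of the other members with the largest differences were -0.31 for Nkx2-5, -0.26 for Gata4 and -0.22 for Tbx20. Ribosomal protein scaling moved the interaction calls over all genes at 8 h from 248 higher and 440 lower to 2916 higher and 44 lower, and 6 of the 10 were then called, all of them higher: Prox1 (0.56), Mef2c (0.47), Mef2a (0.43), Mef2d (0.36), Gata6 (0.32) and Tbx20 (0.30). Mef2a was also called with library size alone (0.27, adjusted p = 0.027) and with no filter on low counts (0.22, adjusted p = 0.046). For Gata6 the interval of the interaction at 8 h was -0.14 to 0.25.

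Several partners of these factors differed between the genotypes. Of 24 tested partner factors and cofactors, 10 were higher and 2 lower in KO at baseline, beside 18.8% of all genes higher and 17.9% lower, with a median log2 fold change of 0.12 against -0.02 over all genes. This split depended on scaling: library size alone gave 5 higher against 6 lower, and scaling to ribosomal proteins 0 against 9. Zfpm1, the GATA cofactor FOG1, was higher (log2 fold change 0.59 ± 0.12 SE, adjusted p = 6.4e-05), as were Cited2, a coactivator that recruits CBP and p300 (0.48 ± 0.08), and Fhl2, a LIM cofactor of the sarcomere and nucleus (0.45 ± 0.04). These 3 were also called higher with library size alone, and not with ribosomal protein scaling (0.26, 0.15 and 0.12). Tead1, which binds beside MEF2 at muscle promoters, was lower (-0.34 ± 0.05), as was Mrtfb, a coactivator of serum response factor (-0.30 ± 0.08), under all scalings. During the block Mrtfb fell in both genotypes (-0.69 ± 0.09 in WT and -0.53 ± 0.09 in KO at 8 h) and Ankrd1, a stress-induced ankyrin repeat cofactor, rose (0.63 ± 0.04 and 0.38 ± 0.04), except with ribosomal protein scaling (-0.03 and -0.01). At 8 h, 12 of 24 were lower and 6 higher in WT, beside 26.8% and 25.0% of all genes, and 10 lower and 7 higher in KO, beside 23.2% and 21.4%; under ribosomal protein scaling these were 23 and 0 in WT and 19 and 0 in KO. The interaction at 8 h was called for 5 of 24, among them Tead1 (0.24 ± 0.07), also under the other scalings, and Csrp3, the muscle LIM protein (-0.29 ± 0.06), whose call was lost with library size alone (-0.19, adjusted p = 0.11).

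Of 12 genes that restrain or activate MEF2 proteins, 3 were lower and 2 higher in KO at baseline, near the 36.7% of all genes called (7 and 0 with library size alone, 8 and 0 with ribosomal proteins). Sik1, a kinase that phosphorylates class II histone deacetylases, stood at -1.12 ± 0.08 on the log2 scale (SE, adjusted p = 1.9e-19), Hdac4, one of those deacetylases, -0.49 ± 0.09, and Cabin1, a repressor of MEF2, -0.26 ± 0.09. Hdac9 (0.27 ± 0.09) and Camk2d (0.23 ± 0.05), the calcium-dependent kinase that drives deacetylases out of the nucleus, were higher, but not with library size alone (0.06 and 0.03) or ribosomal protein scaling (-0.06 and -0.09). Sik1 and Hdac4 were lower at all 3 times, with -1.20 ± 0.09 and -0.41 ± 0.10 at 8 h, and at 0 and 8 h under all scalings. At 8 h of the block 7 of 12 were lower and 1 higher than at 0 h in WT, and 5 lower and 2 higher in KO, beside 26.8% and 25.0% of all genes in WT and 23.2% and 21.4% in KO (12 and 11 lower under ribosomal protein scaling, 0 higher), Hdac7 at -0.69 in both.

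Of 28 cardiac target genes of these factors, 15 were higher and 6 lower in KO at baseline, beside 18.8% and 17.9% of all genes, with a median of 0.25 against -0.02 over all genes. The other scalings gave 10 higher against 12 lower (library size alone) and 10 against 13 (ribosomal proteins). Nppa, the atrial natriuretic peptide gene (log2 fold change 0.69 ± 0.05 SE, adjusted p = 4.8e-18), and the light chain genes Myl3 (0.66 ± 0.04) and Myl2 (0.64 ± 0.07) were higher, under all scalings. Xirp2, which codes for an intercalated disc protein (-0.31 ± 0.04), and the calcium pump gene Atp2a2 (-0.23 ± 0.04) were among those lower. At 8 h against 0 h, 16 of 28 were higher and 3 lower in WT, beside 25.0% and 26.8% of all genes, and 19 higher and 4 lower in KO, beside 21.4% and 23.2%. Scaled to ribosomal proteins, 2 were higher and 21 lower in WT and 0 higher and 12 lower in KO. The sum of the 10 cardiomyocyte markers at 8 h was 58833 to 65442 CPM in WT and 71975 to 77624 CPM in KO. Most of these markers, among them Myh6, Myl2 and Myl3, are also among the 28 target genes, so their sum is no separate measure. At baseline 7 of the 10 markers were higher in KO and 0 lower. The part of myocyte content in the target gene counts was not tested.

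Over the 17 libraries the members differed in how closely other transcripts followed them. The transcripts most like Prox1 in log2 CPM were Auts2 (Pearson r 0.98), Paqr7 (0.98) and Epha4 (0.98), those most like Hand2 were Pnrc2 (0.96), Icam1 (0.93) and Tnfrsf12a (0.91), and those most like Mef2d were Egln1, Npc1 and Rasl10b (each 0.96). Gata6 was most like Rnd3 (0.96), Kcnj12 and Zbtb43 (0.95 each). The closest transcripts were less alike for Tbx5 (Nkx2-5, 0.75), Nkx2-5 (Fam214b, 0.82) and Mef2c (Msn, 0.82). Among the members themselves the closest pairs were Mef2d with Prox1 (0.91), Gata6 with Tbx20 (0.80) and Mef2c with Tbx20 (0.79), and the most opposed Hand2 with Prox1 (-0.81). These are descriptions over libraries that share genotype and time, given with no p.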

How the data were processed

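RNA was sequenced from 17 libraries. The authors deposited raw counts per gene. Builds and tools listed in the submitters' processing notes are GRCm38, mm10, limma, DESeq2, featureCounts and STAR; no source used here gives their versions, the strand setting or the treatment of reads with several positions. A deposited table of ratios was not used. Members and lists were chosen with earlier results of these data known; all 10 members are named, and from each other list up to 3 genes per direction and comparison past the threshold with a mean log2 CPM of at least 1; some genes that the rule names are not reported here.

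Counts were fitted with edgeR 4.0.16 (R 4.3.3): filterByExpr (13230 genes, 99.9% of counts), TMM and 1 robust quasi-likelihood model of the 6 groups, with Benjamini-Hochberg adjustment over all tested genes. The SE is the log2 fold change divided by the square root of F. The model was tested on simulated data. Symbols (99.5% of identifiers), exon lengths and 3′ UTRs came from GENCODE M21. TTATTTAT and the densest tetramer windows were added after the first values were seen. Within-group pairs (16) had log2 r of 0.991 to 0.992 and median squared differences 1.24 to 1.81 times Poisson, so none was a copy. DESeq2 1.42.0, other scalings, filters, the replicate block and leaving out each library were alternatives; scalings of the gene lists were added after seeing the data.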

Additional observations from a re-analysis of the deposited data

Results flagged for a closer look

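The change over 8 h of actinomycin D differed between the genotypes by the interaction test for 2 of the 10 transcripts, which share the libraries of the other comparisons. For Hand2 the KO change minus the WT change was -0.41 on the log2 scale (adjusted p = 0.021), from a fall in all 3 KO libraries relative to the KO libraries at 0 h and a WT range of 14.0 to 14.7 CPM at 8 h against 13.6 to 14.5 CPM at 0 h. For Prox1 it was 0.28 (adjusted p = 0.045), from a lower level in all 3 WT libraries at 8 h and a KO range of 28.8 to 33.3 CPM against 29.2 to 30.2 CPM at 0 h.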

How the results depend on the processing

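The baseline differences of Prox1, Mef2d and Hand2 kept direction and call under every alternative run, as did those of Prox1 at 4 and 8 h and of Mef2d at 4 h. The same held for the falls to 8 h of Gata4, Gata6 and Tbx20 in both genotypes, and of Prox1 and Mef2c in WT. It also held for the falls in KO of Hand2 at 4 and 8 h and of Gata4 and Tbx5 at 4 h. Gata6 at 4 h in both genotypes and Tbx20 from 4 to 8 h in WT kept theirs too. Of 2750 alternative values for single members, 2575 kept their call, 110 lost it, 43 gained it and 22 turned sign with a call in at least 1 of the fits. The 2575 include 105 that turned sign without being called in either fit.

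Scaling mattered most. The median of all genes for KO against WT at baseline moved to -0.22 when only library size was used and to -0.35 with ribosomal protein scaling, and for WT at 8 h to -0.24 and -0.69. With library size alone 7 members were called at baseline, 5 between the genotypes at 8 h and 8 for WT at 8 h. The values that turned were Mef2a -0.17 and Tbx20 -0.16 at baseline, Mef2a -0.0186 for WT at 4 h, and Mef2a -0.17 and Nkx2-5 -0.19 for WT at 8 h. With ribosomal protein scaling 9 were called at baseline, 10 for WT at 8 h against 0 h and 10 against 4 h, 3 for KO at 8 h against 4 h and 6 interactions at 8 h. The values that turned were Gata6 -0.27, Mef2a -0.29, Nkx2-5 -0.24 and Tbx20 -0.28 at baseline, Mef2a -0.33 between the genotypes at 4 h, and Mef2a -0.0331 for WT at 4 h. For WT at 8 h they were Mef2a -0.62, Nkx2-5 -0.64, Tbx5 -0.54 and Hand2 -0.63 against 0 h, and Tbx5 -0.45 and Hand2 -0.32 against 4 h. For KO they were Mef2a -0.0720 and Mef2d -0.21 at 4 h and Mef2a -0.18, Mef2d -0.36 and Prox1 -0.35 at 8 h. The cause was not tested.

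DESeq2 called 4 members between the genotypes at 4 h, 3 for WT at 8 h against 4 h and 0 interactions at 8 h. Without a filter on low counts 1 was called for WT at 4 h and 3 for WT at 8 h against 4 h. With mitochondrial genes left out, or only the groups compared, 1 was called for WT at 4 h. Leaving out 1 library gave 3 calls in each case at baseline, 3 to 7 between the genotypes at 4 h and 2 to 6 at 8 h. Within WT it gave 1 to 2 at 4 h, 5 in each case at 8 h and 2 to 5 for 8 h against 4 h, within KO 4 to 7 at 4 h, 5 to 7 at 8 h and 0 for 8 h against 4 h, and for the interactions 0 at 4 h and 0 to 3 at 8 h.

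No pairing by equal replicate numbers was seen: the deviations of such libraries correlated at -0.0469 to 0.0382 over 40 pairs. Pairs of unequal number were not compared, so this does not exclude pairing. With the replicate block 1 interaction at 8 h was called in place of 2, Prox1 having an adjusted p of 0.05003, and the calls of Tbx20 between the genotypes at 4 h (0.055) and of Gata4 for WT at 8 h against 4 h (0.051) were lost.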

Other observations

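Genes of fast skeletal muscle fibres, a programme that PROX1 is known to restrain in muscle, were looked at after the Prox1 values and those of Myl1 had been seen. Of 8 such genes, 5 had enough counts to be tested and 4 of them were higher in KO at baseline, a comparison in which 18.8% of all genes were. As Myl1 is among the 4, this count is not separate evidence. The fast troponin T gene Tnnt3 had a log2 ratio of 4.41 ± 0.28 (SE, adjusted p = 2.3e-21), the fast troponin I gene Tnni2 2.13 ± 0.21 (adjusted p = 7.9e-13), the light chain gene Myl1 1.83 ± 0.08 (adjusted p = 7.7e-26) and the calsequestrin gene Casq1 0.99 ± 0.10 (adjusted p = 1.8e-12), all with edgeR and called under all scalings. Mylpf was not called (-0.33 ± 0.46 SE, adjusted p = 0.62). At 8 h the values were 4.31 for Tnnt3, 1.90 for Tnni2, 1.75 for Myl1 and -1.14 for Mylpf. A link with the level of Prox1 was not tested.

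Of 15 tested other factors of the cardiac lineage, 3 were higher and 0 lower in KO at baseline (0 and 4 with library size alone). This stood beside 18.8% of all genes higher and 17.9% lower. Among the 3 was Irx3, an Iroquois factor of the conduction system (0.36 ± 0.08 SE, adjusted p = 1.4e-04). Its value with library size alone was 0.15 (adjusted p = 0.12). During the block Tbx3, the T-box repressor of the conduction system, fell by 1.10 in WT and 1.46 in KO on the log2 scale at 8 h (SE 0.20 each), and Irx3 fell by 0.28 and 0.68 (SE 0.08 each), with an interaction of -0.40 ± 0.12 (SE, adjusted p = 0.027) that was lost with library size alone (-0.30, adjusted p = 0.15). In all 5 of 15 were lower and 2 higher at 8 h in WT, beside 26.8% and 25.0% of all genes. In KO 8 were lower and 2 higher, beside 23.2% and 21.4%. Under ribosomal protein scaling these were 15 and 0 in WT and 13 and 0 in KO, beside 85.2% and 62.1% of all genes lower.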
